A study of Mus musculus with 48 samples.

Results

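*Hmgb1* is 1 gene of the 20175 probe codes counted in this series, and its code is RTS0068628. It encodes high mobility group box 1, an abundant non-histone protein of the nucleus that bends DNA and helps to organise chromatin. Outside the cell, after release by stressed or dying cells, the protein acts as an alarm signal on receptors that include RAGE and Toll-like receptors. In the brain it is known both as a nuclear protein of neural progenitors, neurons and glia and as a signal after injury.

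The counts came from the GeoMx Digital Spatial Profiler, in which UV light releases probe codes from a chosen area of interest (AOI) of a tissue section and the codes are then counted by sequencing. The tissue was cerebral cortex of wild-type mice, per the methods non-carriers of the *Aldh1l1-eGFP* (BAC) strain, sectioned from paraffin at 5 µm. Each of 4 slides, labelled PO1, PO2, PO3 and PO5, held 6 regions, and each region gave an astrocyte-enriched AOI (ALDH1L1+CD31-) and a microvessel-enriched AOI (CD31+ALDH1L1-), so that there were 48 AOIs in all. Slide names are not ages: the labels give no age, and regions 1 and 2 were assigned to P0, 3 and 4 to P5, and 5 and 6 to P14, from the ages under which the study lists its values. Both AOIs of a type that share slide and assigned age were treated as coming from 1 animal, which gives 12 animals, n = 4 at each age, with the slide as replicate. This grouping is an assumption at every age. The methods do not state which AOIs share an animal, and their count of samples and tissues does not settle it.

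The labels name no treatment and no mutation, and all comparisons below are between ages or between the areas chosen by antibody. The grouping of AOIs into animals is especially uncertain at P5. There the study's listed means pair AOIs of different slides for 13 of the 15 genes listed for astrocyte-enriched AOIs. They do so for 6 of the 6 genes listed for microvessel-enriched AOIs. If AOIs counted as separate animals share one, p-values are too small. For 1 astrocyte-enriched AOI of slide PO3 (region 6, P14) the title names PO5, and the slide label was followed, because both AOIs of the region carry equal coordinates.

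Gene names are not given beside the codes in the files. RTS0068628 was named *Hmgb1* because its scaled counts equalled all 12 values the study lists for that gene, whereas the next best code matched 1. In the mouse genome (GRCm39, GENCODE annotation) *Hmgb1* is a protein-coding gene on the minus strand at chr5:148983445-149121815, with 28 annotated transcripts, of which the canonical one has 5 exons and 2869 bases. The stretch of the transcript that the probe binds was not known here. RefSeq names 13 pseudogenes after *Hmgb1*, 1 of them transcribed, and whether the probe also binds such copies was not tested.

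The total was 132739 to 5635825 counts per astrocyte-enriched AOI and 46942 to 373762 per microvessel-enriched AOI, so values of the latter are the less precise. The *Hmgb1* code itself gave 14 to 969 counts per AOI. AOIs were scaled to a common 75th percentile of the counts over all codes (Q3), and "normalized count" below means the count over the AOI's Q3, multiplied by the geometric mean Q3 of the 48 AOIs. In microvessel-enriched AOIs the Q3 was only 3 to 18 counts, so that 1 count more or less in the Q3 moves such a value visibly. At P14 the libraries of slides PO1 and PO2 stood apart from those of PO3 and PO5. The median count over the Q3 was 0.39 and 0.46 against 0.70 and 0.68 in astrocyte-enriched libraries. In microvessel-enriched ones it was 0.46 and 0.50 against 0.67 and 0.64. Several changes to P14 are therefore also given by these pairs of slides.

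The labels of the AOI types were set against marker genes. All 4 endothelial markers (*Kdr*, a VEGF receptor, *Nos3*, endothelial nitric oxide synthase, *Cdh5*, VE-cadherin, and *Cldn5*, a tight junction protein) were higher in microvessel-enriched AOIs at each age. Their median log2 difference was 1.52 at P0, 2.39 at P5 and 3.02 at P14. At P14 the 4 log2 ratios of normalized counts lay at 3.03 to 3.94 on slides PO1 and PO2 but at 0.83 to 1.96 on PO3 and PO5. Of 8 astrocyte genes, 5 were lower in microvessel-enriched AOIs over all ages, where 13.2% of all codes were called in either direction (*Aldh1l1*, *Apoe*, *Aqp4*, *Dtna* and *Slc1a2*), and for *Gfap*, *S100b* and *Gja1* the difference did not pass the test. None of these 12 codes was at 0 in any AOI. No background was subtracted, so a count above 0 does not by itself show that the other type's transcripts were present. In microvessel-enriched AOIs the astrocyte genes summed to a normalized count of 117 to 140 at P0 and of 498 to 1585 at P14, and the endothelial markers to 51.3 to 60.9 and 30.7 to 59.4 in astrocyte-enriched AOIs.

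The first question was how the level of *Hmgb1* changed with age in the astrocyte-enriched areas. Here *Hmgb1* fell from P5 to P14 and from P0 to P14, while its lower values at P5 than at P0 did not pass the test over all codes. The normalized count per animal on slides PO1, PO2, PO3 and PO5 was 134, 134, 134 and 123 at P0, 118, 117, 122 and 99.1 at P5, and 72.7, 58.5, 63.7 and 63.4 at P14. Every P14 animal lay below every younger one. P5 and P0 were separated narrowly, with the highest P5 animal at 122.1 and the lowest P0 animal at 122.8, and single AOIs of these 2 ages overlapped. With P5 AOIs paired across slides instead, the P5 animals lay at 105 to 120 and below P0 as well. The mean was 131 ± 5.61 (SD, n = 4) at P0, 114 ± 10.1 at P5 and 64.6 ± 5.89 at P14. In single AOIs the lowest, median and highest values were 119, 130 and 149 at P0, 99.0, 117 and 126 at P5, and 56.1, 63.4 and 76.2 at P14.

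**Figure D1:**
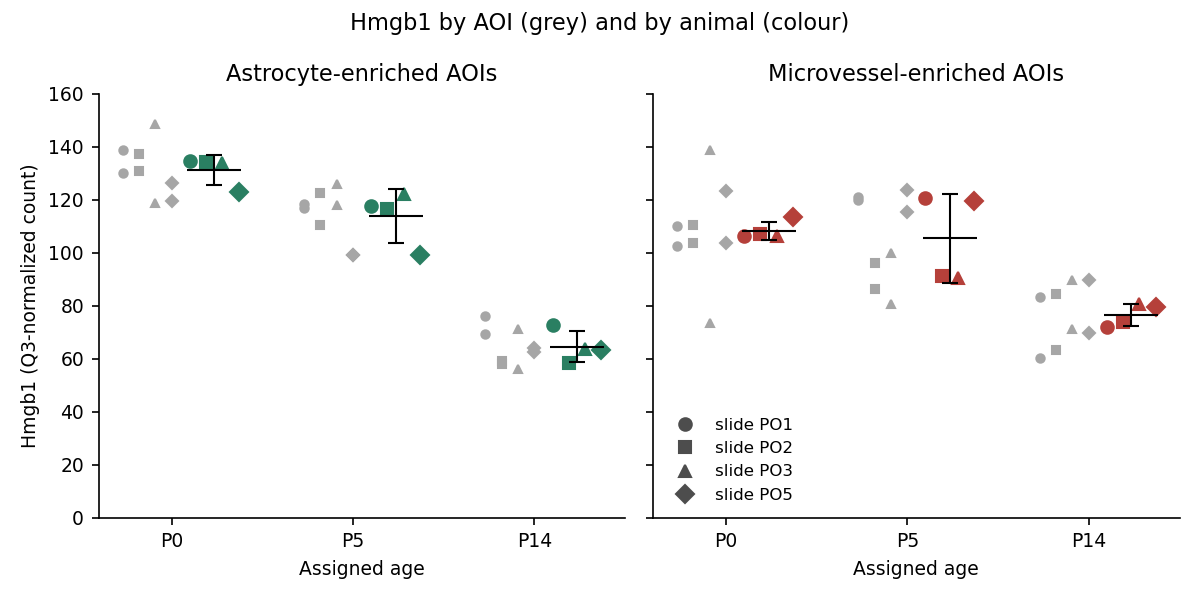
Q3-normalized count of *Hmgb1* (y axis, from 0) by assigned age in astrocyte-enriched (left) and microvessel-enriched AOIs (right); grey symbols are single AOIs, coloured symbols animals (means of 2 AOIs), symbol shapes slides, and bars the mean ± SD of 4 animals. Astrocyte-enriched animals reach from 123 to 134 (P0) and from 58.5 to 72.7 (P14), microvessel-enriched ones from 106 to 113 and from 71.8 to 80.5.

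Counts were summed per animal, scaled by Q3 and fitted in edgeR (quasi-likelihood, slide blocked). *Hmgb1* at P14 differed from P5 by -0.86 ± 0.17 (log2 fold change ± standard error, adjusted p = 0.00162 from edgeR) and from P0 by -1.06 ± 0.17 (adjusted p = 7.01e-05). The change from P0 to P5, -0.20 (95% confidence interval -0.56 to 0.15, adjusted p = 0.53), was not called. These tests called 12.6% of all codes between P14 and P5, 34.8% between P14 and P0 and 9.95% between P5 and P0, so a call as such was common. The scaling bore on them: on the Q3 scale the median code itself changed by -0.31 between P0 and P14 and by -0.17 between P5 and P14. Relative to the median code *Hmgb1* changed by -0.75 and -0.69. These relative values were -0.75 and -0.69 also with total counts or TMM. Another scaling shifts all codes of a comparison nearly alike, so this sameness is built in and is no evidence of robustness. The calls did depend on the scaling. With TMM the P14 to P5 difference was -0.71 (adjusted p = 0.101), and with median scaling it was -0.69 (adjusted p = 0.176) and the P14 to P0 difference -0.70 (adjusted p = 0.0885), none of them called. Of all codes tested, 2.55% had a lower fold change than *Hmgb1* between P14 and P5 and 4.47% between P14 and P0. The pairs of slides differed in this. The P14 to P5 change was -0.84 on PO1 and PO2 and -0.86 on PO3 and PO5. Relative to the median code it was -0.37 and -0.997, and 19.5% and 1.90% of codes had a lower fold change. Over all 33 alternative settings the relative change between P14 and P0 was -1.06 to -0.45. The two-sided exact permutation test of normalized counts gave p = 0.0286 for each of the 3 pairs of ages, the smallest that 4 animals against 4 allow (adjusted p = 0.0619 over the 13 comparisons of *Hmgb1*).

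In the microvessel-enriched areas *Hmgb1* had lower values at P14 than at P0 or P5 as well, by less, and the difference was not called. The normalized count on slides PO1, PO2, PO3 and PO5 was 106, 107, 106 and 113 at P0, 121, 91.2, 90.3 and 119 at P5, and 71.8, 73.9, 80.5 and 79.6 at P14. The P14 animals lay below all younger ones, while P5 spread across P0, with PO1 and PO5 above it and PO2 and PO3 below it. The mean was 108 ± 3.50 (SD, n = 4) at P0, 105 ± 16.9 at P5 and 76.5 ± 4.25 at P14. Single AOIs reached from 73.6 to 139 at P0 (median 107), from 80.7 to 123 at P5 (median 108) and from 60.4 to 89.6 at P14 (median 77.3).

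The edgeR log2 fold change in these areas was -0.59 between P14 and P0 (95% confidence interval -1.05 to -0.13, adjusted p = 0.0743), where 14.5% of codes were called, and -0.56 between P14 and P5 (-1.03 to -0.09, adjusted p = 0.176), where 5.17% were. Between P5 and P0 it was -0.03 (-0.48 to 0.42, adjusted p = 0.992), with 0.433% of codes called. Relative to the median code the changes at P14 were -0.45 from either age. The exact permutation p was 0.0286 for P14 against P0 and against P5 (adjusted p = 0.0619) and 0.657 for P5 against P0 (adjusted p = 0.657). The P14 to P0 difference was called in 5 of 33 alternative settings, with fold changes of -0.84 to -0.20 over all of them. The 2 pairs of slides gave -0.61 (PO1 and PO2) and -0.59 (PO3 and PO5).

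The order of the 6 levels was therefore astrocyte-enriched P0 (131), astrocyte-enriched P5 (114), microvessel-enriched P0 (108), microvessel-enriched P5 (105), microvessel-enriched P14 (76.5) and astrocyte-enriched P14 (64.6). The 3 groups from 114 to 105 overlapped. The 2 groups of P14 also overlapped, since 1 astrocyte-enriched animal (72.7, slide PO1) lay above the lowest microvessel-enriched one (71.8, the same slide). By these means astrocyte-enriched areas had the highest level of *Hmgb1* at P0 and the lowest at P14. The difference between the AOI types passed the test at neither age, as given below.

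The next question was whether *Hmgb1* differed between the astrocyte-enriched and microvessel-enriched areas of the same animals. At P0 the astrocyte-enriched value was the higher in 4 of 4 animals and in 6 of 8 regions. The log2 ratio of microvessel-enriched over astrocyte-enriched normalized counts was -0.34 (PO1), -0.32 (PO2), -0.33 (PO3) and -0.11 (PO5), with a mean of -0.28 ± 0.11 (SD). At P5 the ratio was 0.04, -0.35, -0.44 and 0.27 on the same slides, and its sign was mixed, with 4 of 8 regions on each side. At P14 it was -0.02, 0.34, 0.34 and 0.33, with a mean of 0.25 ± 0.18, and the microvessel-enriched value was the higher in 3 of 4 animals and 7 of 8 regions. On slide PO3 at P0 the 2 regions disagreed, at 0.22 and -1.01, and the microvessel-enriched AOIs there had 139 and 73.6.

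**Figure D2:**
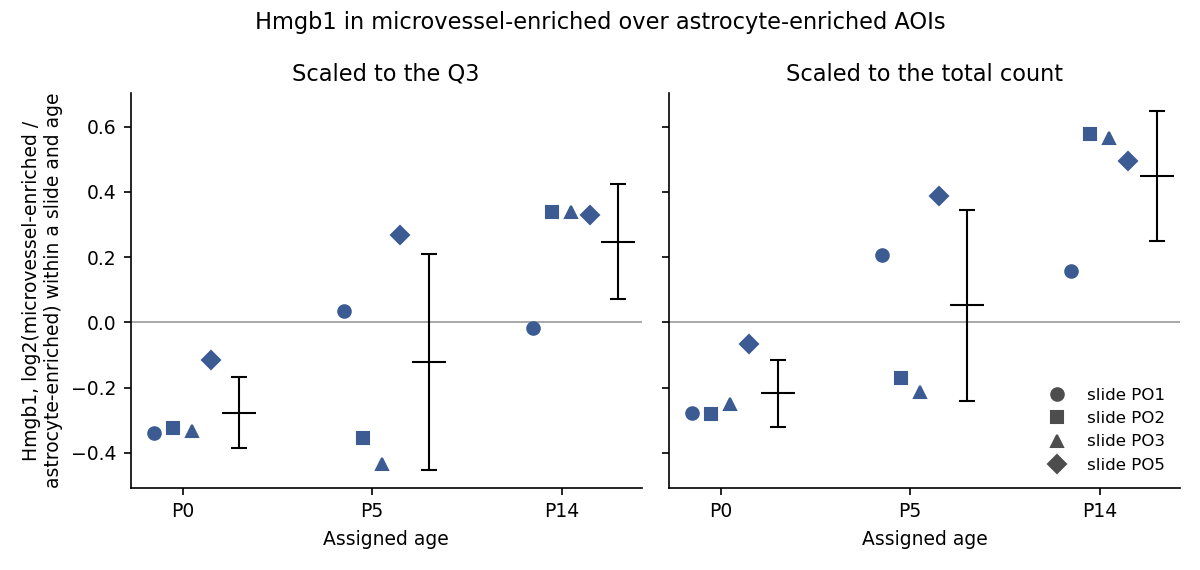
Log2 of the microvessel-enriched over the astrocyte-enriched *Hmgb1* count of the same slide and age (y axis), by assigned age, with counts scaled to the Q3 (left) or to the total count (right); symbols are animals, shapes slides, bars the mean ± SD of 4 animals, and the grey line marks equal values. All 4 ratios of P0 lie below 0 on both scales; at P14, 3 of 4 lie above 0 on the left and 4 of 4 on the right.

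Tested within animals over all codes, the difference between types passed at no age. The edgeR log2 difference, microvessel-enriched minus astrocyte-enriched, was -0.20 at P0 (95% confidence interval -0.39 to -0.01, adjusted p = 0.277, 4.06% of codes called), -0.03 at P5 (-0.25 to 0.19, adjusted p = 0.948, 6.86% called) and 0.22 at P14 (-0.02 to 0.46, adjusted p = 0.262, 13.7% called). Over all ages it was -0.0029 (-0.13 to 0.12, adjusted p = 0.988, 13.2% called). Relative to the median code, which was itself lower in microvessel-enriched libraries, the difference was -0.09 at P0, 0.02 at P5 and 0.33 at P14. An exact sign-flip permutation test cannot pass with 4 animals of an age, since its smallest p is 0.125, and over 12 animals it gave p = 0.546 (adjusted p = 0.591).

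The test of whether the age change differed between the types gave a log2 value of 0.42 for P14 against P0 (95% confidence interval 0.12 to 0.73), positive where the microvessel-enriched areas lost less. Its adjusted p from edgeR was 0.072, so it was not called, while 8.8% of codes were. With normalized counts the mean ratio moved from -0.28 to 0.25, the ratios of the 2 ages did not overlap, and the exact permutation p was 0.0286 (adjusted p = 0.0619). The value was 0.44 on slides PO1 and PO2 and 0.44 on PO3 and PO5, and stayed above 0 under all 33 alternative settings (0.18 to 0.71), of which 4 were called. One of these was the fit without the P14 animal of slide PO1, with 0.57 (adjusted p = 0.0286). Scaled to total counts the value was 0.55 (adjusted p = 0.0118), and the P14 difference between types was 0.38 (adjusted p = 0.0251), both called. The test gave 0.17 for P5 against P0 (adjusted p = 0.631, 5.12% of codes called) and 0.25 for P14 against P5 (adjusted p = 0.764, 0.448% called).

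**Figure D3:**
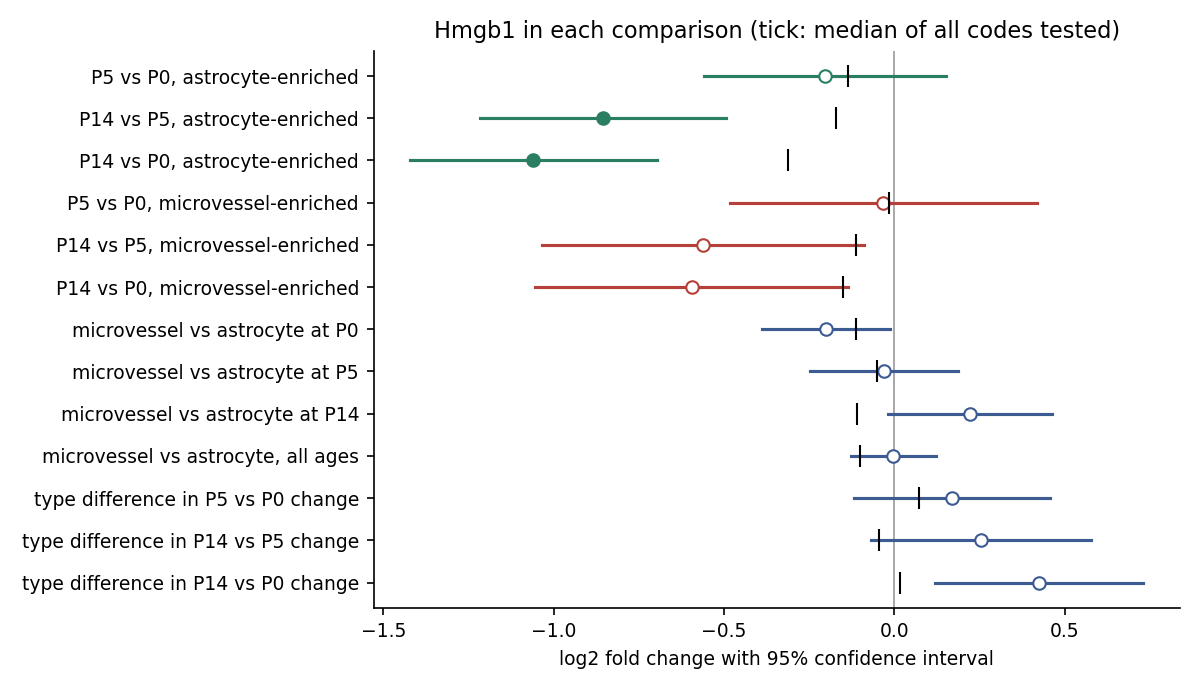
Log2 fold change of *Hmgb1* in each of the 13 comparisons (x axis) with its 95% confidence interval; filled circles have an adjusted p under 0.05 from edgeR's quasi-likelihood test, open circles do not, black ticks mark the median of all codes tested, green is astrocyte-enriched, red microvessel-enriched and blue a comparison of AOI types. Both falls to P14 in astrocyte-enriched AOIs (-0.86 and -1.06) are filled and lie away from their ticks.

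Endothelial genes moved with this contrast, but not alike on all slides. The edgeR difference between microvessel-enriched and astrocyte-enriched AOIs grew from P0 to P14 for 4 of 6 endothelial genes (*Kdr* by 1.69, *Nos3* by 2.06, *Mfs2da* by 0.84 and *Cldn5* by 0.82 on the log2 scale), where 8.8% of all codes were called. *Cdh5* had 0.71 (adjusted p = 0.22 from edgeR) and *Tgp1* -0.58 (adjusted p = 0.076). By slide pair, the log2 ratio of normalized counts was larger at P14 than at P0 for 5 of the 6 on PO1 and PO2 (median change 1.498), but for 2 of the 6, *Kdr* and *Nos3*, on PO3 and PO5 (median change -0.48). That of *Cldn5* changed by 1.32 on PO1 and PO2 and by -0.74 on PO3 and PO5. Of the 8 astrocyte genes none passed the test of this contrast. For *Hmgb1* the edgeR value was 0.44 on either pair of slides, as given above. That is another measure than the log2 ratios of normalized counts given here by slide pair, so the 2 should not be compared directly. The part of the cell mix in the values of *Hmgb1* was not tested. In areas of tissue, fewer cells of a type and less RNA per cell cannot be told apart.

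Area and recorded nuclei changed with age too, and *Hmgb1* looks different when its unscaled counts are set against them. Per 1000 µm² the code gave 7.74 to 11.1 counts in the astrocyte-enriched AOIs of an animal at P0, 3.63 to 6.15 at P5 and 1.29 to 3.08 at P14, and 10.1 to 12.9, 5.00 to 8.63 and 2.47 to 5.02 in microvessel-enriched AOIs. The ages did not overlap in astrocyte-enriched AOIs, and in microvessel-enriched ones P5 and P14 met only at 5.00 and 5.02. The total of all codes per area fell as well, so a fall per area was not particular to *Hmgb1*. Its median over AOIs was 27.6, 17.8 and 10.4 counts per µm² in astrocyte-enriched AOIs at P0, P5 and P14. In microvessel-enriched AOIs it was 41.5, 23.7 and 14.9. Astrocyte-enriched areas also held fewer nuclei per area with age, with 7.71 to 12.5 per 1000 µm² at P0, 1.86 to 5.52 at P5 and 1.49 to 2.87 at P14. In microvessel-enriched areas this density was 15.8 to 22.1, 9.46 to 15.96 and 12.6 to 13.9.

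Per recorded nucleus, *Hmgb1* in astrocyte-enriched AOIs was at 0.81, 0.84, 1.00 and 0.89 counts at P0 and at 1.07, 0.97, 0.59 and 0.86 at P14 on slides PO1, PO2, PO3 and PO5, so that the 2 ages overlapped. In microvessel-enriched AOIs it was 0.54, 0.64, 0.65 and 0.76 at P0 and 0.39, 0.31, 0.21 and 0.19 at P14, with every P14 animal below every P0 animal. At P5 the animals had 0.81 to 2.47 and 0.41 to 0.54 counts per nucleus, and the 2.47 includes an AOI of slide PO3 with 1 recorded nucleus. The total of all codes per nucleus in astrocyte-enriched AOIs was 2424 to 3070 counts at P0 and 3952 to 7178 at P14, with no overlap, and in microvessel-enriched AOIs 1973 to 2636 and 876 to 2167. These ratios were not tested, and counts per area or nucleus also carry how much of each AOI's code was collected and sequenced.

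**Figure D4:**
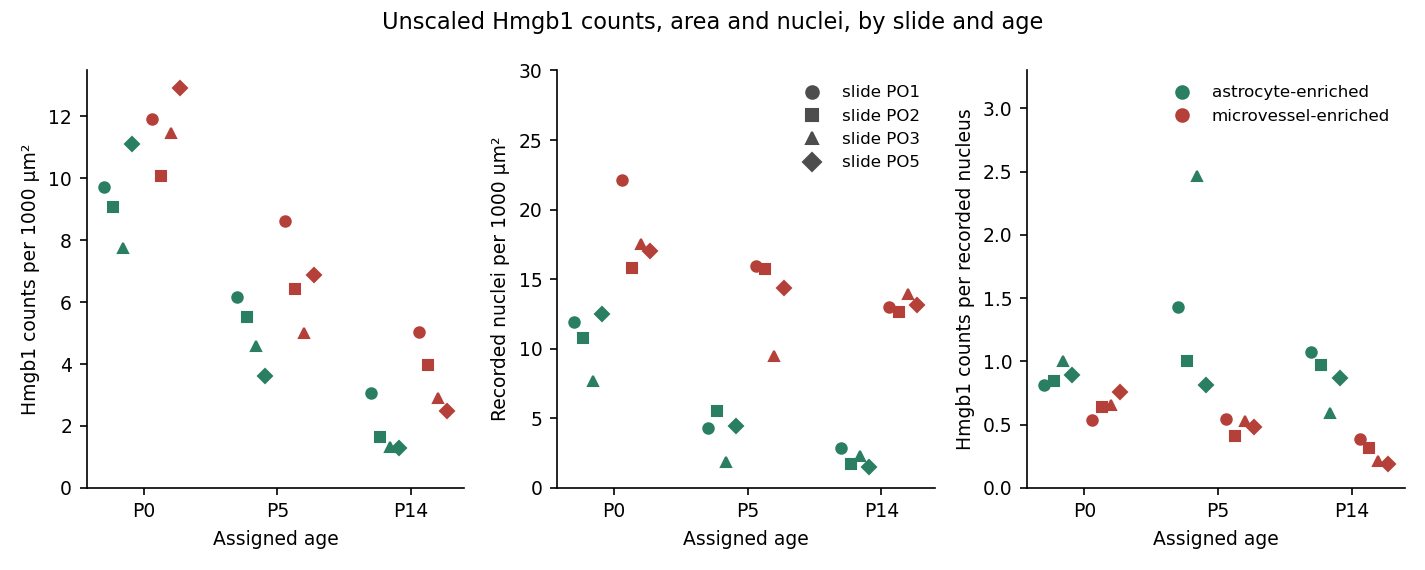
Unscaled *Hmgb1* counts per 1000 µm² (left), recorded nuclei per 1000 µm² (middle) and *Hmgb1* counts per recorded nucleus (right) by assigned age; each symbol is an animal (2 AOIs summed), shapes are slides, green is astrocyte-enriched and red microvessel-enriched. Counts per nucleus reach from 0.81 to 1.00 (P0) and from 0.59 to 1.07 (P14) in green, and from 0.54 to 0.76 and from 0.19 to 0.39 in red.

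The spread of *Hmgb1* was set beside counting error. Between the 2 astrocyte-enriched AOIs of an animal the coefficient of variation was 8.74% at P0, 4.46% at P5 and 9.24% at P14, where counting alone (the Poisson error of the *Hmgb1* count) gives 7.44%, 7.27% and 9.91%. In microvessel-enriched AOIs it was 22.4%, 7.72% and 19.1% against 12.5%, 16.6% and 19.3%, with the widest gap between the 2 regions of slide PO3 at P0 named above. The observed spread was close to the counting error in astrocyte-enriched AOIs of P0 and P14 and in microvessel-enriched AOIs of P14, below it at P5 in both types and above it in microvessel-enriched AOIs of P0. At P5 the 2 AOIs may not be of 1 animal. Between animals the coefficient of variation was 4.27%, 8.88% and 9.12% in astrocyte-enriched and 3.23%, 16.01% and 5.56% in microvessel-enriched AOIs. These are values of means of 2 AOIs, while the counting errors above are of single AOIs. The counting error of such means was not computed, so a small spread between animals need not mean high precision. Probe reads carry molecular identifiers that were used to remove duplicates, and the Poisson errors given here cover counting only.

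*Hmgb1* was among the codes with the highest counts at birth and less so later. Its rank among all codes was 194 to 240 in the astrocyte-enriched libraries of P0, 287 to 347 at P5 and 642 to 1226 at P14. In microvessel-enriched libraries the rank was 215 to 292, 197 to 325 and 286 to 832. At P14 the ranks followed the pairs of slides: 1064 and 1226 on PO1 and PO2 against 642 and 679 on PO3 and PO5 in astrocyte-enriched libraries, and 832 and 723 against 286 and 351 in microvessel-enriched ones. Its count over that of the median code in astrocyte-enriched libraries was 10.9, 10.1, 10.1 and 9.36 at P0 and 9.63, 6.65, 4.42 and 4.93 at P14 on slides PO1, PO2, PO3 and PO5. Measured this way every P14 animal of a slide was below its P0 animal, but the P14 animal of PO1 lay within the P0 range. Ranks compare probes, whose binding may differ, rather than amounts of transcript.

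Beside *Hmgb1*, 20 genes could be named by the same match, all of them genes whose values the study lists, so their directions are not independent evidence. Of 8 astrocyte genes, 6 rose from P0 to P14 in astrocyte-enriched AOIs, where 34.8% of all codes were called and 2708 of 20174 were called higher. They were *Slc1a2*, the glutamate transporter GLT-1 (log2 fold change 5.24), *Apoe*, a lipid carrier (3.01), *Gja1*, connexin 43 (3.01), *S100b*, a calcium-binding protein (1.03), *Dtna*, a dystrobrevin of the endfoot (0.98), and *Aqp4*, the water channel of endfeet (0.87). *Aldh1l1*, a folate enzyme whose protein was stained to choose the areas, had 0.37 and *Gfap*, a glial filament protein, -0.26, and neither was called. The median of the list was 1.01, against -0.31 over all codes and -1.06 for *Hmgb1*. In microvessel-enriched AOIs, where 14.5% of all codes were called, 4 of the 8 rose (*Slc1a2*, *Apoe*, *Gja1* and *S100b*) and none fell. All 6 genes that rose in astrocyte-enriched AOIs had higher normalized counts at P14 on both pairs of slides in either AOI type, as means of a pair. Single slides did not all follow. On PO3 *S100b* changed by -0.56 in astrocyte-enriched and by -0.22 in microvessel-enriched AOIs. In microvessel-enriched AOIs *Aqp4* changed by -0.14 on PO2 and -0.44 on PO5, and *Dtna* by -0.11 on PO5.

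Of 6 genes of angiogenic signalling, 1 rose and 1 fell from P0 to P14 in astrocyte-enriched AOIs, a share of calls like the 34.8% over all codes. *Vegfa*, which encodes the main angiogenic growth factor, rose by 0.67 on the log2 scale (adjusted p = 0.018), and the growth factor gene *Tgfb2* fell by 0.94 (adjusted p = 0.014, both from edgeR). *Wnt7a*, *Wnt3*, *Angpt1* and *Tgfb1* had -0.49 to -0.17 and were not called. *Hmgb1* and *Tgfb2* were the 2 of the 21 named genes that fell there. In microvessel-enriched AOIs only *Vegfa* and *Angpt1* of this list had enough counts to be tested, and neither was called.

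Of 6 endothelial genes, *Kdr*, *Nos3* and *Mfs2da* rose from P0 to P14 in microvessel-enriched AOIs, by 0.87, 1.27 and 0.98, where 14.5% of all codes were called and 941 of 12941 were called higher. *Cdh5*, *Cldn5* and *Tgp1* had 0.31, 0.50 and -0.02 and were not called. None of the list fell, and the list's median of 0.69 stood beside -0.15 over all codes and -0.59 for *Hmgb1*. These rises lay mainly on slides PO1 and PO2, where the normalized counts of all 6 genes were higher at P14 (median log2 change 1.33), while on PO3 and PO5 those of 5 of the 6 were lower (median -0.33) and *Nos3* alone was higher (0.50). *Mfs2da* had 29.1, 15.6, 27.7 and 31.8 at P0 and 77.2, 71.1, 26.1 and 27.6 at P14 on slides PO1, PO2, PO3 and PO5. The spellings *Mfs2da* and *Tgp1* are those of the study's list. In astrocyte-enriched AOIs *Tgp1* alone of these genes rose (0.60, adjusted p = 0.0048 from edgeR).

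**Figure D5:**
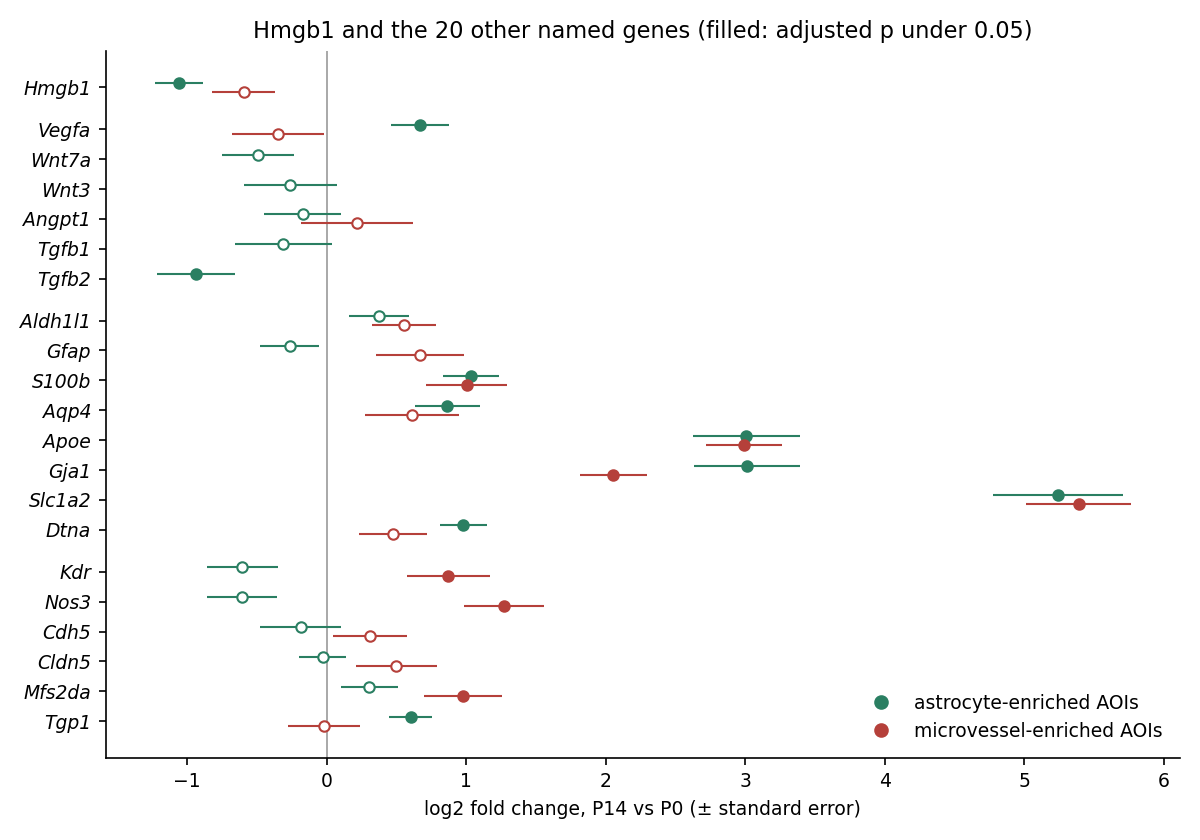
Log2 fold change from P0 to P14 with its standard error (x axis) for *Hmgb1* and the 20 other named genes, in groups of angiogenic signalling, astrocyte and endothelial genes, in astrocyte-enriched (green) and microvessel-enriched AOIs (red); filled circles have an adjusted p under 0.05, and genes without enough counts have no red circle. *Hmgb1* lies at -1.06 and -0.59, while *Slc1a2* lies above 5 in both.

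The pattern of *Hmgb1* over the 24 libraries was most like that of 2 codes that could not be named. RTS0068654 had a Pearson correlation of 0.94 with it and RTS0069566 one of 0.93, on log2 normalized counts. RTS0068654 had a normalized count of 129 ± 5.32 at P0, 87.8 ± 6.14 at P5 and 36.02 ± 7.51 at P14 in astrocyte-enriched AOIs (SD, n = 4), and 103, 79.8 and 36.2 in microvessel-enriched ones. Unlike *Hmgb1*, its P14 means were close to each other in the 2 types. RTS0069566 went from 50.3 to 20.5 and from 40.8 to 21.6. A mean count of at least 20 was reached by 19328 codes, *Hmgb1* among them. Of the codes other than *Hmgb1*, 13 had a correlation above 0.9, the 2 codes above included, and the median correlation was 0.21. Among the named genes *Tgfb2* was the most like *Hmgb1* (0.53), and *Slc1a2* and *Gja1* were the least like it (-0.88 and -0.88). The libraries share animals, scaling and depth, and these correlations are descriptions only.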

How the data were processed

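The deposited counts, 1 file per AOI, give the deduplicated reads of each probe code, made by the authors with the GeoMx NGS Pipeline 2.3.4 and not normalized. The authors later filtered by limit of quantitation, scaled to Q3 and used a mixed model with the slide, none of which is in the files. Sequencing saturation was 96.5% to 98.2%, and the counts sum to the labelled totals in 48 of 48 files.

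Here both AOIs of an animal were added up; the sums were scaled by Q3, filtered with filterByExpr and tested with edgeR 4.0.16 (quasi-likelihood, R 4.3.3, limma 3.58.1) with Benjamini-Hochberg adjustment over all codes at 0.05. Ages were compared in the 12 libraries of a type with the slide as a block, AOI types in 24 libraries with the animal as a block. The pairing comes from the slide labels; deviations of libraries of a slide from their age means correlated at -0.18 to 0.26 between ages (24 pairs) and at 0.01 to 0.56 between types (12 pairs). Single values were compared by two-sided exact permutation tests. Alternatives used DESeq2 1.42.0 and lme4 1.1.37, other steps used scipy 1.17.1, pandas 2.3.3 and numpy 2.4.6 in Python 3.11.15. No background was subtracted, since the files do not mark which codes are negative controls.

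A code was named where its Q3-scaled counts equalled the listed values of a gene as means of any 2 AOIs of an age, within a relative tolerance of 2e-05, better than any other code. This used a scale fitted to the listed values (19.2578 in place of 19.2044) and a Q3 raised by 1 or 2 counts in 6 AOIs. It matched 251 of 252 values of 21 genes (*Slc1a2* 11 of 12), 187 with the Q3 of the files and 1 with the scale computed from them; the next best code matched at most 6 of 12. Ages rest on the same lists, so the match is no independent test of them. Genes named are these 21 and the 2 unnamed codes most like *Hmgb1* in the 24 libraries (codes with a mean count of at least 20, log2 of normalized count plus 1). The gene, the lists and the tests were chosen with earlier results of these data known.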

Additional observations from a re-analysis of the deposited data

Results flagged for a closer look

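Of 39 groups of 4 or 8 values, of *Hmgb1* or of nuclei per area, tested for 1 value far from the others, 4 stood out. Chance gives about 1 in 20 for separate groups, but these groups share values, since the ratios were computed from the counts. The astrocyte-enriched animal of slide PO5 at P0 had a normalized count of 122.8, and the nearest of the other animals had 133.6. The microvessel-enriched animal of the same slide and age had 113.4, with the nearest at 107.1. Its log2 ratio of microvessel-enriched over astrocyte-enriched counts was therefore -0.115, where the other animals of P0 lay at -0.34 to -0.32. At P14 the animal of slide PO1 had a log2 ratio of -0.0176, while the others lay at 0.33 to 0.34. The microvessel-enriched values rest on 143 to 190 *Hmgb1* counts per animal at P0 and on 40 to 96 at P14. Counting error of a single such AOI was 12.5% and 19.3%. Whether the flagged animals deviate by more than counting error was not tested.

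The change of *Hmgb1* from P0 to P14 differed between the AOI types by the exact permutation test of the log2 ratios (p = 0.0286, the smallest that 4 animals against 4 allow). The adjusted p was 0.0619 over 13 comparisons, and over all codes edgeR gave an adjusted p of 0.072, so this difference did not pass a correction. The mean ratio was -0.28 at P0, with 0 of 4 animals above 0, and 0.25 at P14, with 3 of 4 above 0.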

How the results depend on the processing

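*Hmgb1* at P14 in astrocyte-enriched AOIs was lower than at P0 under all 33 alternatives (-1.11 to -0.70) and than at P5 under all 33 (-0.92 to -0.69), and all 16 fits that left out an animal or a slide called both. Leaving out single animals and pairing P5 across slides were chosen after the data were seen. With DESeq2 the log2 value was 0.000101 for P5 against P0 in microvessel-enriched AOIs (turned sign), 0.020 for the AOI types at P5 (turned sign) and 0.078 for the AOI types over all ages (turned sign). With P5 paired across slides and no replicate block the log2 value was -0.60 for P14 against P0 in microvessel-enriched AOIs (adjusted p = 0.0428, called). With TMM scaling the log2 value was -0.71 for P14 against P5 in astrocyte-enriched AOIs (adjusted p = 0.101, no longer called), 0.0030 for the AOI types at P5 (turned sign) and 0.049 for the AOI types over all ages (turned sign). With the higher-numbered region of each pair only the log2 value was 0.71 for the type difference in the P14 against P0 change (adjusted p = 0.0269, called) and 0.10 for P5 against P0 in microvessel-enriched AOIs (turned sign). With the lower-numbered region only the log2 value was -0.84 for P14 against P0 in microvessel-enriched AOIs (adjusted p = 0.0137, called) and -0.018 for the type difference in the P5 against P0 change (turned sign). With median scaling the log2 value was -0.69 for P14 against P5 in astrocyte-enriched AOIs (adjusted p = 0.176, no longer called), -0.70 for P14 against P0 in astrocyte-enriched AOIs (adjusted p = 0.0885, no longer called) and -0.059 for the type difference in the P5 against P0 change (turned sign). In a mixed model on single AOIs the log2 value was -0.20 for P5 against P0 in astrocyte-enriched AOIs (adjusted p = 0.022, called), -0.49 for P14 against P0 in microvessel-enriched AOIs (adjusted p = 0.0184, called) and 0.52 for the type difference in the P14 against P0 change (adjusted p = 0.0336, called). That model had a random term for the slide but none for the animal. It counted AOIs of 1 animal as separate replicates, so its p-values may be too small. With no replicate block the log2 value was 0.012 for the AOI types over all ages (turned sign). On slides PO1 and PO2 only the log2 value was -0.63 for P14 against P5 in microvessel-enriched AOIs (adjusted p = 0.0106, called), -0.61 for P14 against P0 in microvessel-enriched AOIs (adjusted p = 0.00605, called) and 0.022 for P5 against P0 in microvessel-enriched AOIs (turned sign). On slides PO3 and PO5 only the log2 value was 0.040 for the AOI types at P5 (turned sign) and 0.12 for the AOI types over all ages (turned sign). With a stricter filter on low counts the log2 value was -0.59 for P14 against P0 in microvessel-enriched AOIs (adjusted p = 0.0347, called). With all libraries thinned to the lowest total the log2 value was 0.066 for P5 against P0 in microvessel-enriched AOIs (turned sign) and 0.10 for the AOI types over all ages (turned sign). Scaled to total counts the log2 value was 0.38 for the AOI types at P14 (adjusted p = 0.0251, called), 0.55 for the type difference in the P14 against P0 change (adjusted p = 0.0118, called), 0.0022 for P5 against P0 in microvessel-enriched AOIs (turned sign), 0.057 for the AOI types at P5 (turned sign) and 0.088 for the AOI types over all ages (turned sign). Without 1 animal or slide the log2 value was -0.13 to 0.061 for P5 against P0 in microvessel-enriched AOIs, 0.35 to 0.57 for the type difference in the P14 against P0 change, -0.14 to 0.069 for the AOI types at P5 and -0.062 to 0.045 for the AOI types over all ages. The type difference in the P14 against P0 change was called without the P14 animal of slide PO1 (adjusted p = 0.0286). On the level itself TMM gave 120 in astrocyte-enriched AOIs at P0 and 82.6 in microvessel-enriched AOIs at P14, and total counts 83.5 in the latter. With Spearman correlation 1 of the 5 codes most like *Hmgb1* was among the first 5. The cause of these changes was not tested.

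With no replicate block the type difference in the P14 against P0 change was 0.46 (adjusted p = 0.493), and the slide block, whose pairing comes from the slide labels, changed no call of *Hmgb1*. The Q3 of 3 to 18 counts limits the microvessel-enriched values.

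The number of codes called moved by more than 1.5 times in these settings. P5 against P0 in astrocyte-enriched AOIs gave 2008, and 6861 with 2 groups, 4554 with slides PO1 and PO2, 995 with thinning, 1287 with the higher region, 3405 with the mixed model and 1190 to 2675 with 1 animal or slide left out. P14 against P5 in astrocyte-enriched AOIs gave 2532, and 13795 with slides PO1 and PO2, 862 with thinning and 1257 to 4058 with 1 animal or slide left out. P14 against P0 in astrocyte-enriched AOIs gave 7019, and 15028 with slides PO1 and PO2, 3734 with slides PO3 and PO5, 2078 with thinning and 3638 to 10052 with 1 animal or slide left out. P5 against P0 in microvessel-enriched AOIs gave 56, and 29 with TMM, 15 with median scaling, 507 with 2 groups, 238 with slides PO1 and PO2, 154 with slides PO3 and PO5, 29 with thinning, 21 with the lower region, 21 with the higher region, 35 with the mixed model and 12 to 116 with 1 animal or slide left out. P14 against P5 in microvessel-enriched AOIs gave 669, and 355 with 2 groups, 2556 with slides PO1 and PO2, 404 with thinning, 332 with the higher region, 427 with DESeq2 and 197 to 1023 with 1 animal or slide left out. P14 against P0 in microvessel-enriched AOIs gave 1882, and 1197 with 2 groups, 3994 with slides PO1 and PO2, 1026 with slides PO3 and PO5, 989 with thinning, 919 with the higher region, 1067 with DESeq2, 1200 with the mixed model and 773 to 2264 with 1 animal or slide left out. The AOI types at P0 gave 816, and 245 with no replicate block, 539 with slides PO1 and PO2, 418 with slides PO3 and PO5, 289 with thinning, 521 with the lower region, 346 with the higher region, 204 with the mixed model and 478 to 927 with 1 animal or slide left out. The AOI types at P5 gave 1377, and 397 with no replicate block, 846 with slides PO1 and PO2, 677 with slides PO3 and PO5, 663 with thinning, 877 with the lower region and 872 to 1456 with 1 animal or slide left out. The AOI types at P14 gave 2743, and 998 with no replicate block, 669 with slides PO3 and PO5, 1094 with thinning, 1587 with the higher region and 1460 to 2730 with 1 animal or slide left out. The AOI types over all ages gave 2656, and 1154 with no replicate block, 967 with slides PO3 and PO5, 899 with thinning, 1738 with the higher region, 1568 with DESeq2 and 1743 to 2771 with 1 animal or slide left out. The type difference in the P5 against P0 change gave 1029, and 1615 with median scaling, 139 with no replicate block, 617 with slides PO1 and PO2, 470 with slides PO3 and PO5, 384 with thinning, 633 with the lower region, 520 with the higher region, 298 with the mixed model and 620 to 1114 with 1 animal or slide left out. The type difference in the P14 against P5 change gave 90, and 3 with no replicate block, 59 with 2 ages, 244 with slides PO1 and PO2, 39 with slides PO3 and PO5, 17 with thinning, 38 with the higher region, 55 with DESeq2, 5 with the mixed model and 28 to 172 with 1 animal or slide left out. The type difference in the P14 against P0 change gave 1767, and 275 with no replicate block, 519 with slides PO3 and PO5, 562 with thinning, 1079 with the lower region, 733 with the higher region, 331 with the mixed model and 898 to 1888 with 1 animal or slide left out.

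The share of lower codes among those called moved with the scaling. P14 against P0 in astrocyte-enriched AOIs had 61.4% with Q3 and 41.9% with TMM and 31.6% with median scaling. P14 against P0 in microvessel-enriched AOIs had 50.0% with Q3 and 27.9% with TMM, 39.2% with total counts and 22.7% with median scaling. P14 against P5 in astrocyte-enriched AOIs had 49.5% with Q3 and 33.2% with TMM and 30.4% with median scaling. P14 against P5 in microvessel-enriched AOIs had 38.9% with Q3 and 19.8% with TMM and 12.3% with median scaling. P5 against P0 in astrocyte-enriched AOIs had 26.6% with Q3 and 13.99% with median scaling. P5 against P0 in microvessel-enriched AOIs had 30.4% with Q3 and 46.7% with median scaling. The type difference in the P14 against P0 change had 65.4% with Q3 and 48.1% with total counts and 82.7% with median scaling. The type difference in the P5 against P0 change had 76.1% with Q3 and 93.9% with median scaling. The AOI types at P0 had 36.03% with Q3 and 15.9% with TMM and 15.03% with median scaling. The AOI types at P14 had 65.2% with Q3 and 42.8% with total counts and 75.2% with median scaling. The AOI types at P5 had 66.2% with Q3 and 50.8% with total counts and 81.7% with median scaling. The AOI types over all ages had 65.6% with Q3 and 51.2% with TMM and 40.1% with total counts.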
